A study of Mus musculus with 2 samples.

Results

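Immediate early genes of the AP-1 group were followed through the cell classes of mouse retina after sodium iodate. The 10 genes were taken by symbol and are Fos, Fosb, Fosl2, Jun, Junb, Jund, Atf3, Egr1, Ier2 and Klf6. All 10 are among the 31053 genes counted in both libraries. The control library came from mice given phosphate-buffered saline (PBS), and the other from mice given 20 mg/kg of sodium iodate (NaIO3) intravenously, an oxidant toxic to the pigment epithelium. Eyes were taken on day 7, and the retinas of 6 mice per group were pooled into 1 library and dissociated with papain at 15 U/mL. No genotype, strain or age is labelled. Each group is 1 library, so there is no replicate check and no p-value, and treatment, dissociation, bead selection and library cannot be told apart. The labels call both libraries CD11b+ microglia, while the protocol mentions CD11b beads solely for pellets of the NaIO3 group. Most cells in both libraries carried rod markers, which goes against that label.

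Immediate early genes are transcribed within minutes of a stimulus, without new protein synthesis. Proteins of the FOS family pair with proteins of the JUN family to form the AP-1 transcription factor, and ATF3 can pair with JUN proteins. Kinase cascades that act on factors such as SRF, ELK1 and CREB start their transcription. In the retina they are known to respond to light, injury and stress, and enzymatic dissociation of tissue also raises many of them.

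Promoter sequences were available for 8 of the 10 genes from RefSeq (GRCm38.p6), each 300 bases around the RefSeq gene start. The cAMP response element (CRE) core TGACG, searched on both strands, was found in 4 of these 8, namely Fos, Fosb, Junb and Atf3. Of all 32851 such promoters, 20.8% hold it. No window of the 8 held a full CRE (TGACGTCA, 1.79% of all promoters), an AP-1 site (TGACTCA or TGAGTCA, 5.2%) or a CArG box, the serum response element (1.63%). The full CRE contains the core on both strands. The 4 windows with the core and that of Jun, which lacks it, are shown because their genes differ in how far apart the libraries were. The windows of Fosl2, Jund and Klf6 also lack the core, and Klf6 was at least 2-fold higher in NaIO3 in 4 of 5 classes. Egr1, also higher in 4 classes, and Ier2 had no window to search. A link between the core and the ratios was not tested. Capitals mark the core. Windows are chr12:85473640-85473939 on the plus strand for Fos, chr7:19309996-19310295 (minus) for Fosb, chr8:84978699-84978998 (minus) for Junb, chr1:191183284-191183583 (minus) for Atf3 and chr4:95052173-95052472 (minus) for Jun.
Fos: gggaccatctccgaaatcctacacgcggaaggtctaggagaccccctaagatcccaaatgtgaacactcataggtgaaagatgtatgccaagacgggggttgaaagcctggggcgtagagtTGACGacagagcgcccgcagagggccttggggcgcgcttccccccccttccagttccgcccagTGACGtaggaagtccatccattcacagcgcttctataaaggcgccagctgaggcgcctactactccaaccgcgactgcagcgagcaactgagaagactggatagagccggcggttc
Fosb: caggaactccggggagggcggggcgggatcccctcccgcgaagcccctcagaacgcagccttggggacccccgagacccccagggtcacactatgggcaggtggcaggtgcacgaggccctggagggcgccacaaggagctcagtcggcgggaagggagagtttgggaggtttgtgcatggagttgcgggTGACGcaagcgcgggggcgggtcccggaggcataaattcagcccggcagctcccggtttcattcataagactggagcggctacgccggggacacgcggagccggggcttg
Junb: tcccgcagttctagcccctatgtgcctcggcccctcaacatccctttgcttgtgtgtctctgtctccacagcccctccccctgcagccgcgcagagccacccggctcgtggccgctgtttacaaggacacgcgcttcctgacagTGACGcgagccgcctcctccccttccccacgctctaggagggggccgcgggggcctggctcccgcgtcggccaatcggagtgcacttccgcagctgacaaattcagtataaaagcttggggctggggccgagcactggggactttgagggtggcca
Atf3: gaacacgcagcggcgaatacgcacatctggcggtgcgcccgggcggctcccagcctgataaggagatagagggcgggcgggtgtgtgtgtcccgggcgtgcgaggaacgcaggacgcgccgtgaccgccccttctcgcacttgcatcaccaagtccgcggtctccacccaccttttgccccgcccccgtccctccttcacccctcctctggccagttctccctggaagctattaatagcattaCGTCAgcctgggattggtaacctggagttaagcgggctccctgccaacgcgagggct
Jun: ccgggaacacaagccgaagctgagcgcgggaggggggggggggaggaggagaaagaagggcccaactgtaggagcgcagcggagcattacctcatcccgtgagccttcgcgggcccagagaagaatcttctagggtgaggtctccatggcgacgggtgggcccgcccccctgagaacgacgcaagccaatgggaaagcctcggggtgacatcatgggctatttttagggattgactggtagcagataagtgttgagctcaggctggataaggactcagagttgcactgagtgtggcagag

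The Fos window held the core in 2 places, starting 129 and 66 bases before the gene start. In Fosb it began 60 bases before the start, in Junb 106 and in Atf3 7. By the annotation the Fos gene spans chr12:85473890-85477273, and the Atf3 window lies inside its gene, chr1:191170296-191218039. The Fosl2 window, from 32136222 to 32136521 on chromosome 5, also lies inside its gene, which starts at 32135801. The Jund window, from 70697489 to 70697788 on chromosome 8, ends before the annotated Jund start at 70698949, so the sequence next to that start was not searched. The matches are a description of letters, and binding was not measured.

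In the mm10 annotation (GENCODE M21) all 10 genes are protein coding. Jun overlaps Junos, Junb overlaps Prdx2 and Jund overlaps Gm11175, each on the other strand. The sources used here do not say whether counting used strand, so reads of these pairs may not be separable.

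The PBS library held 6242 barcodes with 26605477 UMIs and the NaIO3 library 9746 barcodes with 75981079. Of these, 5573 and 9441 cells were kept, with medians of 2486 and 2951 UMIs, and 24 barcode sequences occurred in both libraries. Cells were gated on marker genes that include none of the 10 genes. The gates gave 5142 PBS and 5304 NaIO3 rod-like cells, 238 and 331 cone-like, 43 and 503 bipolar-like, 57 and 544 Müller-like, and 14 and 1455 microglia-like cells. Itgam, which encodes CD11b, had no UMI in the PBS rod-like cells and 30 UMIs in the NaIO3 rod-like cells. The 10 genes were summed per class and library and scaled to 1000000 UMIs of that class (CPM). Ratios are NaIO3 over PBS with an exact 95% interval that covers counting error only. In summed counts, fewer cells using a gene and less RNA per cell cannot be told apart.

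Fos, Fosb and Atf3 were at least 2-fold higher in the NaIO3 library in all 5 classes. Other settings ended this call for Fos in microglia-like cells (1.77 as a mean of per-cell CPM) and in bipolar-like cells (1.09 with cells low in rod RNA), and for Atf3 in Müller-like cells (1.43 with cells low in rod RNA). Egr1 and Klf6 were so in 4 classes, and Junb was higher in 4 and lower in microglia-like cells. Jun and Jund did not follow this pattern. In rod-like cells 6 of 9 measured genes were at least 2-fold higher, beside 10.2% of all 7158 measured genes, and none was 2-fold lower, beside 2.95%. In cone-like cells 8 of 9 were higher (9.41% of all genes) and none lower (2.22%). In bipolar-like cells 6 of 9 were higher (11.7%) and 1 lower (7.87%). In Müller-like cells 7 of 9 were higher (16.0%) and none lower (12.9%). In microglia-like cells 3 of 10 were higher (10.1%) and 4 lower (34.0%), a share of lower genes near the background, and 1 of these 4 is Fosl2 with a PBS count of 1 UMI. A gene counts as measured at 20 CPM in either library and 20 summed UMIs, and Fosl2 passed this in microglia-like cells alone. In rod-like, cone-like and bipolar-like cells Fosb, Atf3 and Klf6 passed it only through NaIO3, where they were higher. Atf3 did so in Müller-like cells too. The counts of higher genes thus rest in part on this filter, which was the same for all genes.

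**Figure D1:**
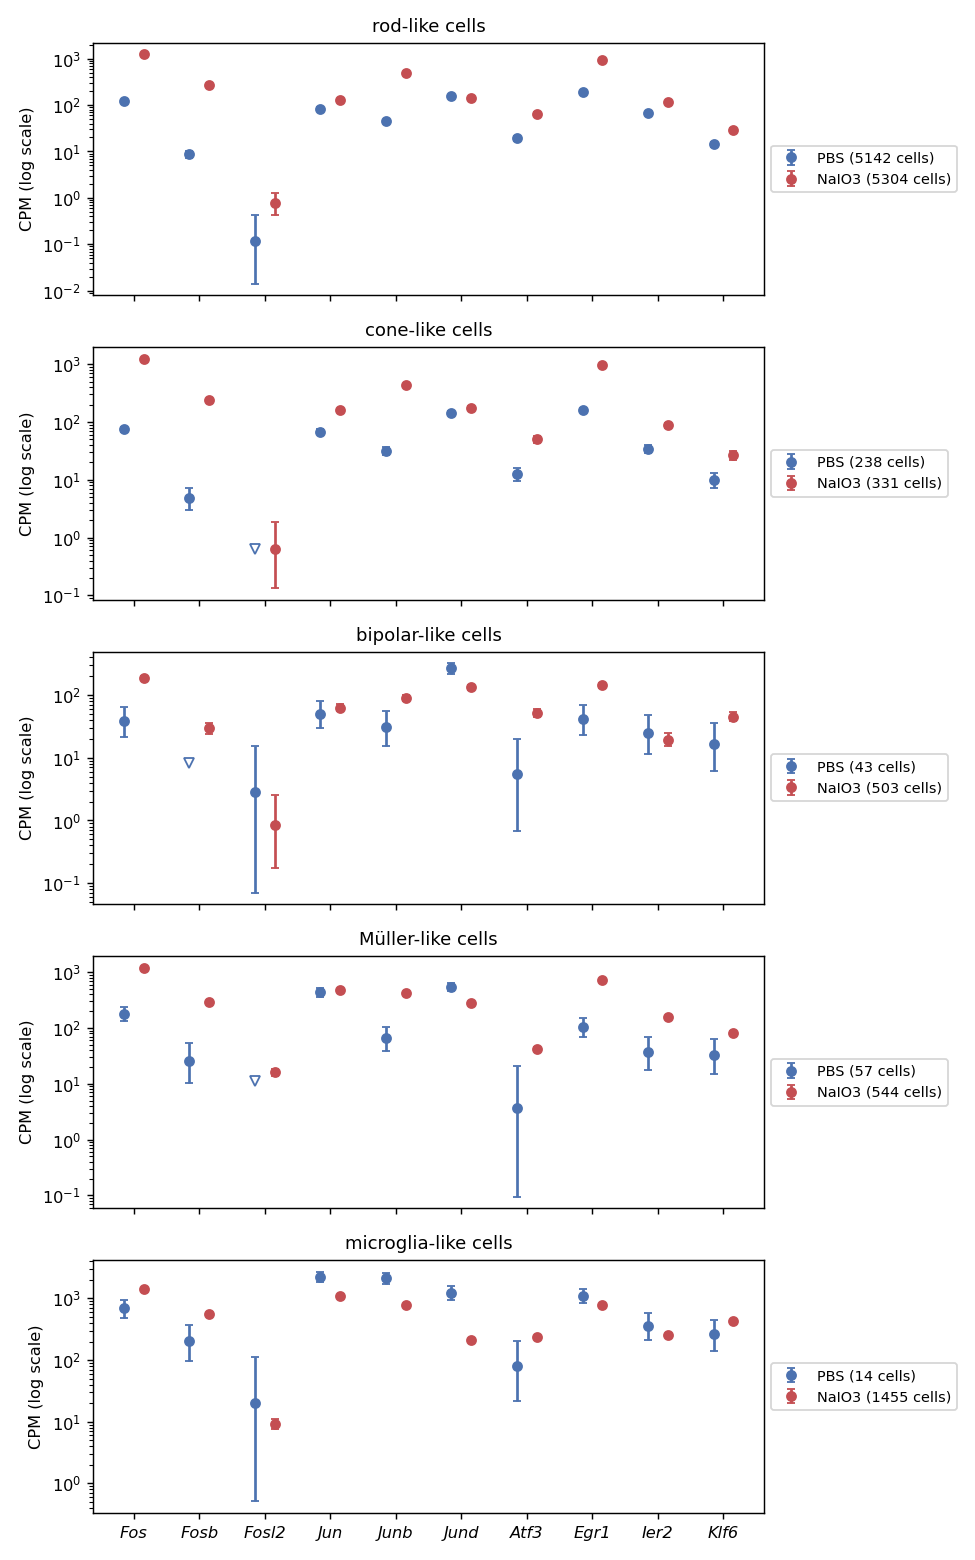
Level of each gene in CPM (log axis) in the PBS library (blue) and the NaIO3 library (red), by marker-gated class. Bars are exact 95% Poisson intervals for counting error, and open triangles mark genes with no UMI, placed at the level of 3 counts. In rod-like cells Fos stands at 121 in PBS and 1229 in NaIO3, while Jund stands at 158 and 141.

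Fos, which encodes the founding member of the FOS family, was at 121 CPM in PBS rod-like cells and 1229 in NaIO3 rod-like cells, a ratio of 10.2 (9.72 to 10.6). In cone-like cells it went from 74.2 to 1218, a ratio of 16.4 (14.7 to 18.3). A 5% mitochondrial limit left 13 PBS cone-like and 19 PBS Müller-like cells, and the cone-like Fos ratio was then 9.50. In Müller-like cells Fos was 181 and 1200 CPM, 6.63-fold apart (5.01 to 8.97), and in bipolar-like cells 39.1 and 187, 4.77-fold apart (2.83 to 8.78). The PBS Müller-like level came from 49 Fos UMIs in 10 of 57 cells, with 18 of them in 1 cell. Microglia-like cells had 686 CPM already in PBS, from 34 UMIs in 4 of 14 cells, and 1421 in NaIO3, a ratio of 2.07 (1.48 to 2.99). The rod-like ratio was 1.53 times the Müller-like ratio (1.15 to 2.04), an order that turned with a 5% mitochondrial limit, where they were 6.49 and 43.2. Thinned cells gave 7.98 and 18.7, and averaging CPM over single cells gave 7.88 and 9.04, both again in the turned order. The Fos ratio in rod-like cells was 4.91 times that in microglia-like cells (3.49 to 6.89, Wald interval on 4 counts).

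Fosb, a FOS family subunit known from stimulated neurons, had the largest ratio among the members of the group measured in rod-like and cone-like cells, and ranked 43 of 7158 and 16 of 7292 among all genes there. It was 8.66 CPM in PBS rod-like cells and 269 in NaIO3 rod-like cells, a ratio of 31.0 (26.4 to 36.8), and 4.79 and 237 in cone-like cells, a ratio of 49.4 (32.7 to 78.2), or 9.88 with the 5% limit. In Müller-like cells 7 PBS UMIs gave 25.9 CPM against 291, a ratio of 11.3 (5.46 to 28.1). No Fosb UMI was seen in the 43 PBS bipolar-like cells. Against the level of 3 counts, the 29.8 CPM of NaIO3 bipolar-like cells was at least 3.55-fold higher. In microglia-like cells Fosb was 202 and 554 CPM, 2.75-fold apart (1.49 to 5.73).

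Fosl2, the FOS family gene that encodes FRA-2, was scarce in retinal neurons. Rod-like cells held 2 UMIs in PBS and 14 in NaIO3, so it was not measured there. Its 1 PBS UMI in microglia-like cells gives a ratio of 0.457 (0.0801 to 18.2), which carries no direction. In Müller-like cells the PBS library had no UMI and the NaIO3 library 16.1 CPM from 216 UMIs, so it was not measured there either. The class sums were 270796 UMIs in PBS and 13394395 in NaIO3. Against the level of 3 counts in PBS, the bound was 1.46-fold.

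Among the JUN family, Junb differed most between classes. It was 45.3 CPM in PBS and 479 in NaIO3 rod-like cells, a ratio of 10.6 (9.82 to 11.4), and 31.7 and 431 in cone-like cells, a ratio of 13.6 (11.5 to 16.1), or 4.199 with the 5% limit. Müller-like cells had 66.5 and 432 CPM, 6.50-fold apart (4.11 to 10.98), or 15.2 with that limit, and bipolar-like cells 30.7 and 89.4, 2.91-fold apart (1.60 to 5.89), or 1.08 when thinned to 1000 UMIs. Microglia-like cells ran the other way, with 2118 CPM in PBS and 774 in NaIO3, a ratio of 0.366 (0.302 to 0.448), or 0.597 with trimmed-mean (TMM) scaling and 0.584 with median-of-ratios scaling. The rod-like ratio was 28.9 times the microglia-like ratio (23.5 to 35.5).

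Jun, the gene of the canonical FOS partner c-JUN, differed less than Fos in rod-like, cone-like, Müller-like and bipolar-like cells. In rod-like cells it was 84.1 and 126 CPM, a ratio of 1.503 (1.41 to 1.61), or 0.925 with a 5% mitochondrial limit, and in cone-like cells 68.4 and 159, a ratio of 2.32 (2.04 to 2.65). The cone-like ratio was 1.55 times the rod-like ratio (1.34 to 1.79). Jun in cone-like cells lay below 2-fold under 3 of the 11 other settings, at 1.88 at the lowest. In Müller-like cells, where Jun was already 436 CPM in PBS, the NaIO3 value was 487, a ratio of 1.12 (0.932 to 1.35), which became 2.46 in cells low in rod RNA. Bipolar-like cells had 50.3 and 62.7 CPM, with a ratio of 1.25 (0.771 to 2.14). In microglia-like cells Jun was 2239 and 1078 CPM, a ratio of 0.481 (0.399 to 0.586), which lay between 0.531 and 0.786 under the 4 settings that ended the 2-fold call.

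Jund, a JUN family gene usually expressed without a stimulus, was higher by 2-fold in no class. It was 158 and 141 CPM in rod-like cells, a ratio of 0.889 (0.842 to 0.939), and 143 and 174 in cone-like cells, a ratio of 1.22 (1.10 to 1.35). In Müller-like cells it was 536 and 279 CPM, a ratio of 0.520 (0.441 to 0.619), just outside the 2-fold threshold. In bipolar-like cells it was 265 and 132, just inside, and in microglia-like cells it was 1231 and 213, a ratio of 0.173 (0.134 to 0.227). The bipolar-like call was lost under 8 of the 11 other settings.

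Atf3, which encodes a stress-responsive bZIP factor, was 19.1 CPM in PBS and 65.6 in NaIO3 rod-like cells, a ratio of 3.44 (3.04 to 3.90). In cone-like cells it was 12.5 and 49.97 CPM, 3.995-fold apart (2.997 to 5.40). The PBS counts of the other classes were 2 UMIs in bipolar-like, 1 in Müller-like and 4 in microglia-like cells. The ratios there, 9.33 (2.55 to 77.6), 11.3 (2.01 to 446) and 2.97 (1.16 to 10.9), are correspondingly loose.

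Of the immediate early genes outside the AP-1 dimer, Egr1, a zinc finger factor, was 190 and 916 CPM in rod-like cells, a ratio of 4.83 (4.66 to 5.02). Its ratio was 5.95 (5.52 to 6.43) in cone-like, 6.91 (4.78 to 10.4) in Müller-like and 3.39 (2.04 to 6.10) in bipolar-like cells. With the 5% limit it was 3.41 in cone-like and 82.5 in Müller-like cells. Only 13 PBS cone-like and 19 PBS Müller-like cells were left at that limit, and no interval was computed there. At the main limit the PBS Müller-like level came from 28 Egr1 UMIs in 8 of 57 cells. Microglia-like cells had 1110 and 770 CPM, a ratio of 0.694 (0.533 to 0.922), which turned to 1.13 with TMM. Ier2, which encodes a nuclear protein, was 66.1 and 118 CPM in rod-like cells, a ratio of 1.79 (1.66 to 1.92), and reached 2-fold in cone-like cells at 2.53 (2.10 to 3.05) and Müller-like cells at 4.30 (2.33 to 8.97). The cone-like Ier2 ratio was 1.18 with the 5% limit, which ended the call. Klf6, a Krüppel-like factor, was 14.2 and 28.7 CPM in rod-like cells, a ratio of 2.02 (1.73 to 2.36), just inside the threshold, and lay under it in 6 of 11 other settings. Its ratio was 2.71 (1.93 to 3.88) in cone-like, 2.70 (1.21 to 7.47) in bipolar-like, 2.47 (1.30 to 5.41) in Müller-like and 1.66 (0.970 to 3.12) in microglia-like cells. The call of Klf6 was lost with thinning in cone-like (1.21), bipolar-like (0.963) and Müller-like cells (1.61), and with the 5% limit in Müller-like cells (1.49).

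**Figure D2:**
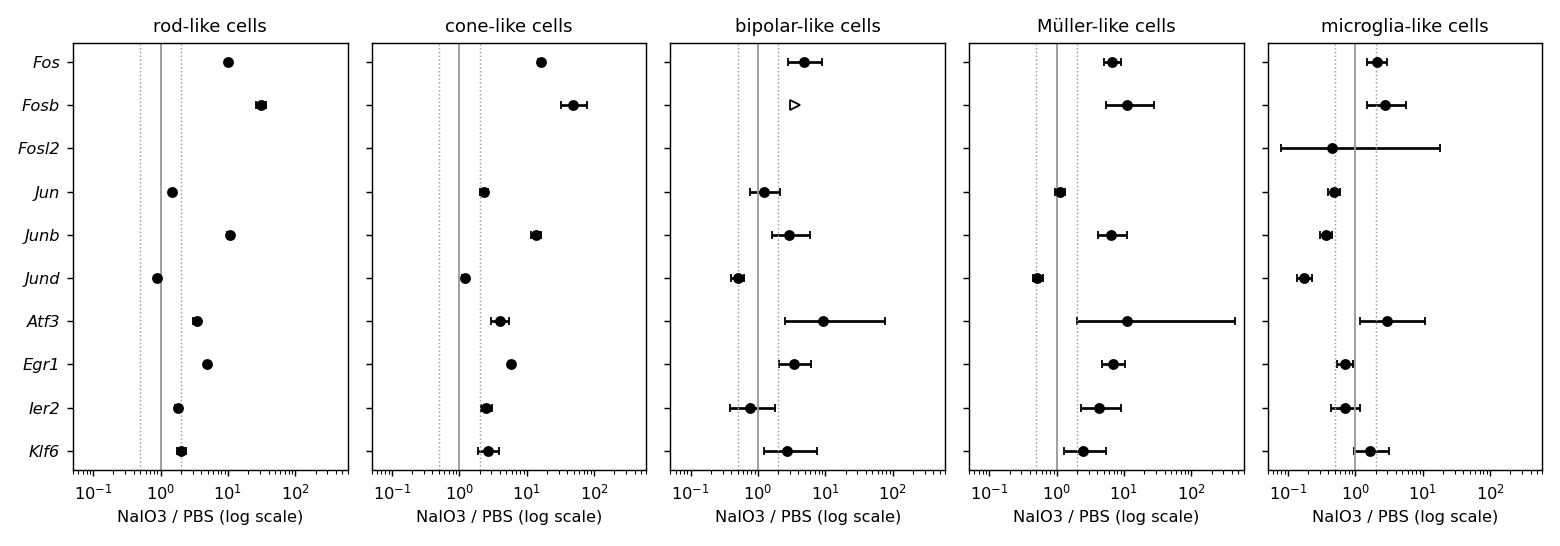
NaIO3 over PBS ratio (log axis) of each gene in 5 classes, with exact 95% intervals for counting error. Dotted lines mark 2-fold in either direction, the open triangle is a lower bound, and genes not measured in a class are left out. Fos, Fosb and Atf3 lie right of the 2-fold line in every panel, and Junb lies left of it in microglia-like cells at 0.366.

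Summed over all 10 genes, the level was 706 CPM in PBS and 3373 in NaIO3 rod-like cells, a ratio of 4.78 (4.69 to 4.87). The ratio of the sum was 6.19 (5.94 to 6.46) in cone-like, 2.60 (2.36 to 2.89) in Müller-like, 1.59 (1.36 to 1.87) in bipolar-like and 0.692 (0.628 to 0.764) in microglia-like cells. The median log2 ratio over all measured genes was 0.28 in rod-like, 0.27 in cone-like, 0.078 in bipolar-like, 0.066 in Müller-like and -0.56 in microglia-like cells, the last without 784 of 8462 genes that gave no usable fold. TMM scaling moved that median by -0.38 in rod-like, -0.32 in cone-like and 0.95 in microglia-like cells. The share of higher genes among all genes past 2-fold went from 77.6% to 38.8% in rod-like, from 80.9% to 50.2% in cone-like and from 23.0% to 62.1% in microglia-like cells. Median-of-ratios scaling gave 38.5%, 52.3% and 53.4%, and the per-cell mean 42.6% in microglia-like cells. Fos, Fosb and Atf3 stayed above 2-fold in these classes under TMM, and the summed microglia-like ratio turned to 1.13.

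Rod transcripts were also counted in the other classes, and whether they came from free RNA, doublets or gating was not tested. The rod markers stood at 16.0% of their rod-like level in NaIO3 bipolar-like cells and at 5.25% in PBS bipolar-like cells. In the NaIO3 bipolar-like cells Fos stood at 15.2% of its rod-like level, Egr1 at 15.5%, Ier2 at 16.5%, Fosb at 11.1% and Junb at 18.7%. These 5 genes sat near the rod-marker level, while Jun at 49.6%, Atf3 at 79.5%, Jund at 94.0% and Klf6 at 158% stood well above it. In bipolar-like cells with rod markers under 10% of the reference, the Fos ratio was 1.09, the Egr1 ratio 0.553 and the summed ratio 0.890, while Atf3 stayed at 7.24, Klf6 at 4.60 and Junb at 2.43. This restriction, to 32 PBS and 372 NaIO3 cells, was chosen after seeing the data.

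**Figure D3:**
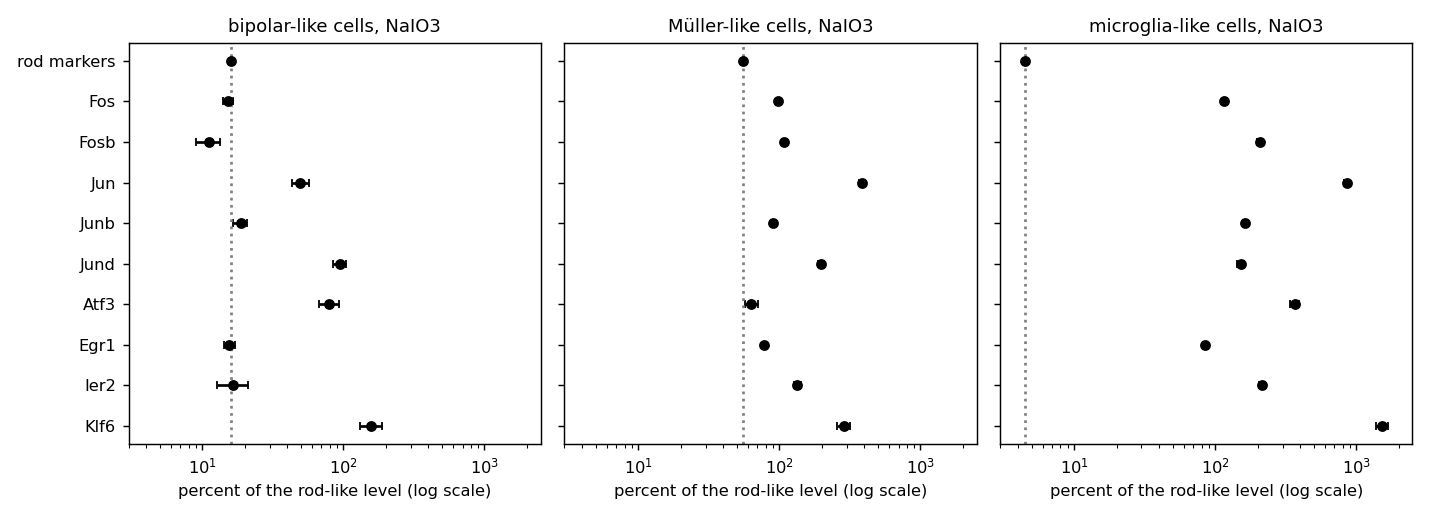
Level in NaIO3 bipolar-like, Müller-like and microglia-like cells as a percentage of the NaIO3 rod-like level of the same gene (log axis), with exact 95% intervals. The dotted line is the value of the summed rod markers, which is 16.0% in bipolar-like and 4.45% in microglia-like cells. Fos lies on that line in bipolar-like cells at 15.2% and far right of it in microglia-like cells at 116%.

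Rod RNA was also high in Müller-like and cone-like cells. In NaIO3 Müller-like cells the rod markers were at 55.5% of their rod-like level, against 18.1% in PBS, and Fos was at 97.6%, Junb at 90.3% and Egr1 at 78.0%. Müller-like cells differed in depth too, with medians of 3349 UMIs in PBS and 21580 in NaIO3. In Müller-like cells low in rod RNA, 28 in PBS and 119 in NaIO3, the Fos ratio was 10.4, the Junb ratio 23.3 and the Egr1 ratio 10.8. In NaIO3 cone-like cells the rod markers were at 62.0% of the rod-like level and Fos at 99.1%, and in PBS cone-like cells the rod markers were at 79.2%. Cone markers had a median of 381% of the cone reference share in PBS cone-like cells and 110% in NaIO3 cone-like cells. In rod-like cells that median was 0 in PBS and 12.6% in NaIO3. The part of rod RNA, or of this difference in cone markers, in the cone-like ratios was not tested.

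In microglia-like cells rod markers were at 4.45% of the rod-like level in NaIO3, whereas Fos stood at 116%, Jun at 853% and Klf6 at 1518%. C1qa, a marker of these cells, was seen in all 14 PBS and 1332 of 1455 NaIO3 cells. The 14 PBS cells had rod markers at 20.6% of the rod-like level. Their 111 Jun UMIs came from 5 cells, with 39 in 1 of them, and their 105 Junb UMIs from 7 cells. The microglia-like ratios rest on these few cells. P2ry12, a marker of resting microglia, was 1251 CPM in PBS and 55.6 in NaIO3 microglia-like cells.

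Rod-like cells give the deepest view of the 10 genes. Different Leiden clusters held most of them in PBS and in NaIO3, and the mitochondrial share of UMIs had a median of 7.04% in PBS and 2.05% in NaIO3. Among rod-like cells under 2% mitochondrial UMIs, 843 in PBS and 2595 in NaIO3, the Fos ratio was 6.90, the Fosb ratio 33.5, the Junb ratio 6.49 and the Egr1 ratio 3.86. Jun at 0.920 and Klf6 at 1.39 were not higher by 2-fold in that range. From 10% to 15%, the Fos ratio was 8.69, that of Fosb 25.7 and that of Junb 10.8, while Atf3 was at 1.86 (0.662 to 4.22) from 6 NaIO3 UMIs.

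When each cell was thinned to 1000 UMIs, 12.6% (11.7 to 13.5) of 4862 PBS rod-like cells and 51.2% (49.8 to 52.7) of 4692 NaIO3 rod-like cells had a Fos UMI, against 24.5% and 65.2% before thinning. For Fosb the thinned shares were 0.946% and 19.8%, for Junb 5.64% and 33.2%, and for Egr1 15.1% and 41.5%. Jund went the other way, from 15.7% to 12.4%. In NaIO3 bipolar-like cells, where Fos stood at the rod-marker level, the thinned share was 10.2%. Unthinned, these rod-like cells had a median of 2653 UMIs and the bipolar-like cells 6183. At least 3 of the 10 genes were seen in 3.62% of PBS and 31.7% of NaIO3 rod-like cells, in 1.27% and 29.4% of cone-like cells, and in 4.17% and 40.9% of Müller-like cells.

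**Figure D4:**
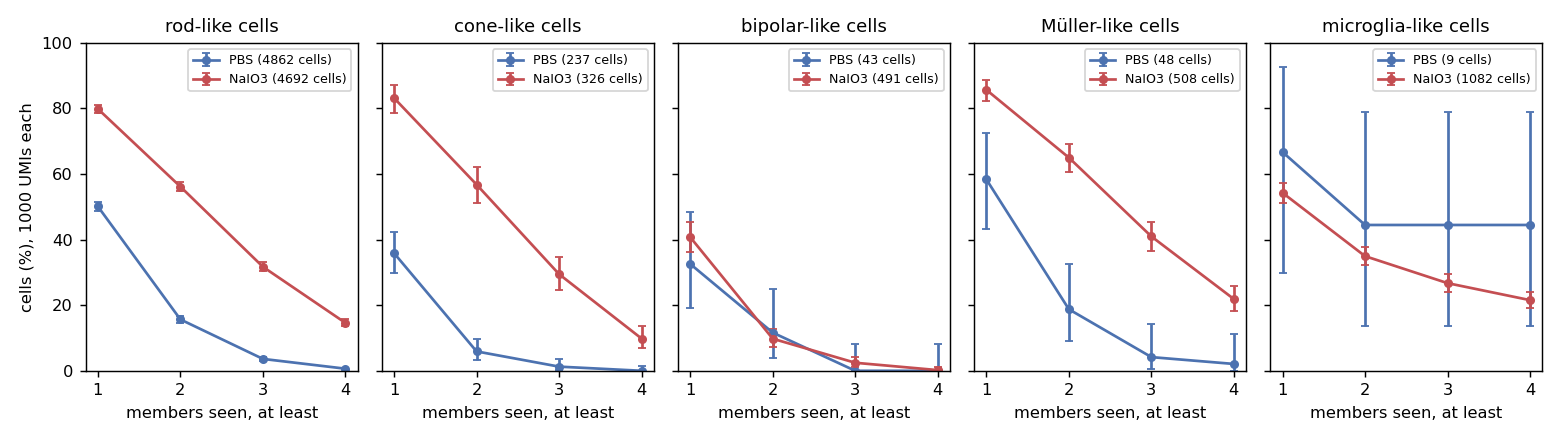
Share of cells (%) with at least 1, 2, 3 or 4 of the 10 genes after thinning each cell to 1000 UMIs, in PBS (blue) and NaIO3 (red). Bars are exact 95% binomial intervals. At least 3 genes were seen in 3.62% of PBS and 31.7% of NaIO3 rod-like cells.

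The genes were seen together more in some pairs than in others. Of the 2403 thinned NaIO3 rod-like cells with a Fos UMI, 55.6% had an Egr1 UMI, against 26.6% of the 2289 without. For Junb the shares were 42.0% and 23.9%, and for Fosb 29.5% and 9.70%. Atf3 differed little, at 6.03% and 5.59%. Fos was 1364 CPM in NaIO3 rod-like cells with an Edn2 or Fgf2 UMI and 1201 in those without, and 1163 in those with an Hspa1a or Hspa1b UMI against 1287 without. These 4 Fos levels come from thinned cells, and all lie above the 121 CPM of PBS rod-like cells, which is an unthinned class sum.

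In NaIO3 microglia-like cells the genes were unevenly spread and followed depth. After thinning, 45.8% of 1082 cells had none of the 10 genes and 21.5% had at least 4. At least 4 were seen in 0.742% of cells that had 1000 to 3000 UMIs before thinning, in 18.2% of those with 3000 to 10000 and in 58.5% of those with 10000 or more. Over the same depths, Müller-like cells gave 10.2%, 14.5% and 24.3%, and rod-like cells 16.3%, 11.9% and 14.3%. The depth ranges were chosen after seeing the data, and the part of cell type or RNA quality in this was not tested.

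**Figure D5:**
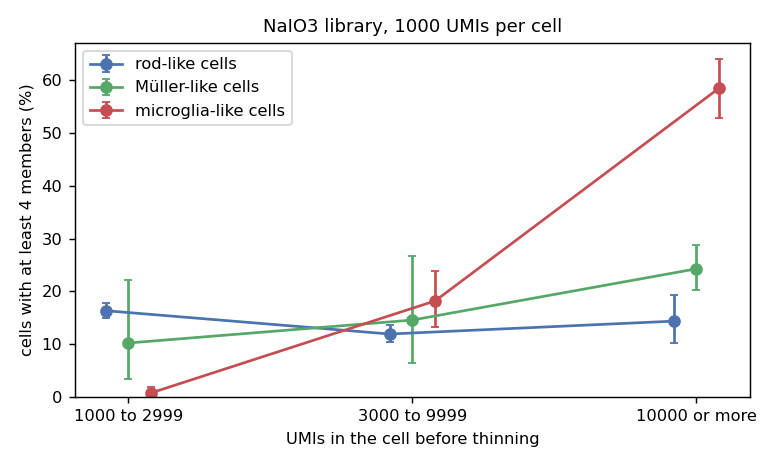
Share of NaIO3 cells (%) with at least 4 of the 10 genes after thinning to 1000 UMIs, by the number of UMIs the cell had before thinning. Bars are exact 95% binomial intervals. Microglia-like cells climb from 0.742% to 58.5% and Müller-like cells from 10.2% to 24.3%, while rod-like cells stay between 11.9% and 16.3%.

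Some classes were found almost solely in the NaIO3 library and have no comparison. The summed level was 7818 CPM in 259 dendritic-like cells, 7052 in 119 endothelial-like, 6979 in 20 monocyte-like, 6334 in 76 macrophage-like and 2406 in 21 T or NK-like cells. Markers overlapped between the immune classes. Microglia markers had a median of 133.7% of their reference in macrophage-like, 83.35% in monocyte-like and 56.4% in dendritic-like cells, beside 104% in NaIO3 microglia-like cells. Monocyte markers had a median of 77.9% in T or NK-like cells. Fosl2, near absent from neurons, was 113 CPM in endothelial-like cells and 73.8 in T or NK-like cells. Atf3 was 323 CPM in dendritic-like and 7.91 in T or NK-like cells, the latter from 3 UMIs. The 24 amacrine-like cells of PBS summed to 1310 CPM, with Egr1 at 321 and no Fosb or Atf3 UMI.

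Other genes of the pathway were taken from lists chosen with earlier results of these data known, and are counted here past 1.5-fold. In rod-like cells 6 of 9 measured other immediate early genes were higher and 1 lower; their median log2 ratio was 0.87 beside 0.28 for all genes. Of all measured genes, 28.8% were higher and 8.26% lower by this rule. In cone-like cells 6 of 9 were higher and none lower, beside 26.6% and 6.75% of all genes. In bipolar-like cells 3 of 10 were higher and 3 lower, beside 25.0% and 18.9%. In Müller-like cells 9 of 17 were higher and 1 lower, beside 28.2% and 24.3%. In rod-like cells again, Gadd45b, a stress-induced growth arrest gene, was 8.83 and 141 CPM, a ratio of 16.0 (13.6 to 19.0), while Sgk1, a kinase gene, was 939 and 488, a ratio of 0.520. Of 8 measured feedback inhibitors, 5 were higher and 1 lower, beside 28.8% and 8.26% of all genes. Socs3, an inhibitor of cytokine signalling, had 4 UMIs in PBS and 1727 in NaIO3 rod-like cells, a ratio of 407 (159 to 1495), and Zfp36, which destabilises AU-rich transcripts, a ratio of 4.66 (3.65 to 6.03). Of 9 upstream kinases and factors 3 were higher and none lower, near the 28.8% and 8.26% of all genes in rod-like cells. The higher ones included Mapk8, which encodes JNK1, at 2.21 and Creb1 at 2.24. Other bZIP subunits had 1 of 5 higher, Atf7 at 3.87, and none lower, beside the same shares.

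Heat shock genes known to rise in tissue dissociation were mixed in rod-like cells, with 4 of 9 higher and 1 lower, beside 28.8% and 8.26% of all genes. Hsph1 had a ratio of 2.90 (2.54 to 3.32) and Dnajb1 of 2.55 (2.32 to 2.79), whereas Hspa1a was 125 CPM in PBS and 76.2 in NaIO3, a ratio of 0.608 (0.568 to 0.651). In microglia-like cells 6 of 9 were higher and none lower, beside 17.4% and 44.8% of all genes, with Hspa8 at 4.56 (3.01 to 7.28) and Hspa5 at 5.01 (2.87 to 9.71). Of 7 listed genes of microglial ex vivo activation, 3 were higher and none lower in microglia-like cells, beside the same 17.4% and 44.8%. Of these 7, 1 gave no usable fold. The part of either list in the difference of the 10 genes was not tested. In Müller-like cells 4 of 5 measured reported AP-1 targets were higher and 1 lower, beside 28.2% and 24.3% of all genes. Cd44, a hyaluronan receptor, was at 3.54 (2.24 to 5.98), and the lower one was Ccnd1, which encodes cyclin D1, at 0.511 (0.386 to 0.690). Timp1, a metalloproteinase inhibitor, had no PBS UMI and was at least 13.4-fold higher. Ccnd1 was the sole target measured in rod-like cells and was lower there too, at 0.509 (0.434 to 0.597). In microglia-like cells none of 16 other immediate early genes was higher and 9 were lower, while 4 gave no usable fold, beside 17.4% higher and 44.8% lower of all genes. Among them were Klf4 at 0.221 and Ier5 at 0.257. Of the 10 feedback inhibitors measured in microglia-like cells, 1 was higher and 4 were lower, beside the same 17.4% and 44.8% of all genes. The higher one was Dusp1, a phosphatase gene of the MAP kinase pathway, at 7.47 (2.92 to 27.4).

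Across 16 class-by-library units with at least 10 cells, the log2 levels of Fos and Fosb had a Pearson correlation of 0.95, and those of Fos and Jund of 0.28. The genes most like the sum of the 10 were Sbno2 at 0.94, Arhgap17 at 0.94, Ikbkb at 0.93, Zfp36 at 0.92 and H2-D1 at 0.92, followed by Tap1, Ap3b1, Parp14, Bst2 and Eif4ebp2. These units share 2 libraries, so the correlations describe these libraries only.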

How the data were processed

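The deposited matrices are raw, unnormalised UMI counts from the authors' Cell Ranger output, per the file headers version 3.0.2. The submitters' processing notes give mm10 as the build. The sources used here name no annotation version, and 30934 of 31053 gene IDs are in GENCODE M21. Cells needed 500 UMIs, 300 genes and at most 15% mitochondrial UMIs. A class gate needed 3 distinct markers at 25% or more of the class's reference share, the median among cells with many of its markers. Cells passing gates of several unrelated non-rod classes were left out as mixed, by the markers alone. They were 20 PBS and 515 NaIO3 cells, the latter with 23.7% of the kept UMIs and 4588 CPM of the 10 genes. Whether they were doublets was not tested. The doublet caller scrublet, used only as another setting, marked 0 of 5573 PBS and 133 of 9441 NaIO3 cells. A cell passing the rod gate and another gate was kept in the other class. Overlaps among microglia, macrophage, monocyte and dendritic gates, or between Müller and astrocyte gates, were also kept. Rod markers had a median of 41.4% of the rod reference in NaIO3 Müller-like cells and 49.0% in NaIO3 cone-like cells. Near the cone gate, 76 NaIO3 cells of any class lay just above it and 82 just under it, beside 331 NaIO3 cone-like cells.

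Counts were summed per class and divided by the class total. Intervals are exact binomial (ratios, shares) or exact Poisson (levels) at 95% and cover counting error only. Where a class sum was 0 in a library, 3 counts took its place to give a bound. Correlations used log2(CPM + 10) of genes reaching 50 CPM. On simulated counts with 4-fold changes, microglia-like sums recovered 95% of raised and 86% of lowered genes among 7690, and 26.7% of unchanged genes passed 2-fold. Named genes are all 10 members and up to 3 highest and 3 lowest of each list. The members and lists were chosen with earlier results of these data known. Python 3.11.15, scanpy 1.11.5, scipy 1.17.1 and edgeR 4.0.16 (TMM factors only) were used.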

Additional observations from a re-analysis of the deposited data

Results flagged for a closer look

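Junb differed in direction between classes. NaIO3 over PBS, it was 10.6 in rod-like, 13.6 in cone-like, 6.50 in Müller-like and 2.91 in bipolar-like cells, and 0.366 in microglia-like cells. Jun was 2.32 in cone-like and 0.481 in microglia-like cells. With 1 library per group, these differences between classes were not tested over replicates, and the intervals given above cover counting error only.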

How the results depend on the processing

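No paired analysis was possible because each group has 1 library and no result comes from a test over samples. Of 154 class sums and counts of called genes recomputed under other settings, 115 stayed within counting error or within 1.5 times the count, and 39 moved. The summed ratio in rod-like cells was 3.48 with a 5% mitochondrial limit, 3.75 with TMM, 3.75 with median-of-ratios scaling, 3.93 as a mean of per-cell CPM, 4.04 thinned and 4.98 in deeper cells. In cone-like cells it was 3.96 (5% limit), 5.01 (TMM), 5.08 (median-of-ratios), 5.74 (per-cell mean) and 5.65 (thinned). In Müller-like cells it was 4.38 (5% limit), 3.44 (no limit), 3.33 (Leiden clusters), 3.53 (low rod RNA), 3.08 (thinned) and 3.52 (per-cell mean). In bipolar-like cells it was 0.890 (low rod RNA) and 1.33 (per-cell mean). In microglia-like cells it was 0.804 (no limit), 0.797 (Leiden), 1.13 (TMM), 1.11 (median-of-ratios) and 0.590 (per-cell mean), so scaling turned its direction. In bipolar-like cells the genes higher numbered 3 with low rod RNA and 3 thinned, and those lower 0 with no limit, deeper cells, scrublet, Leiden, TMM, median-of-ratios, per-cell mean and thinning. Lower genes in microglia-like cells numbered 2 with no limit, 2 with Leiden, 1 with TMM and 1 with median-of-ratios, and in Müller-like cells 1 with 1 more marker required. Egr1 in bipolar-like cells reversed to 0.553 with low rod RNA, and Klf6 there to 0.963 when thinned. Beyond what each setting changes by construction, the cause was not tested. Under 10 cells were left for bipolar-like and microglia-like cells at the 5% limit and for microglia-like cells with deeper, low rod RNA or thinned cells, and these were not run. The 14 PBS microglia-like cells limit every ratio of that class.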
